A study of Mus musculus with 74 samples.

Results

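Pro-epicardial cells that expressed the LIM-homeodomain transcription factor Lhx9 were compared with those that did not, among the cells with little cardiac muscle actin. The members were chosen by their measured Lhx9 and Actc1 levels. Counts were scaled to a total of 1000000 in each cell (CPM). A cell was kept when Actc1, the cardiac alpha-actin gene, was under 500 CPM. It was called Lhx9-positive at 5 or more Lhx9 counts and Lhx9-negative under 5. The rule kept 51 of 74 cells, of which 32 were Lhx9-positive and 19 Lhx9-negative. The other 23 cells were left out for Actc1. The cells came from the pro-epicardial organ of Tbx18Cre;mTmG mouse embryos of the strain C57BL/6 at embryonic day 9.5. In these embryos a Cre recombinase driven by Tbx18 switches the colour of a membrane reporter. Sorted labelled cells were sequenced singly from full-length amplified polyadenylated RNA (SMART-Seq with Nextera XT libraries). Both groups therefore carry the same alleles, and every cell belongs to the Tbx18 lineage by design.

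The pro-epicardial organ is a transient outgrowth of mesothelium at the venous pole of the looping heart, and its cells cross to the heart surface and form the epicardium. Mesothelial cells form a polarised sheet with apical glycoproteins, simple keratins and uroplakins, and the mesenchyme of the septum transversum lies beneath it. Lhx9 is known for its need in mouse gonad formation, and its close relative Lhx2 for its role in the mesenchyme of the liver and septum transversum.

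Embryo and litter are not named in the labels, so together the cells form 1 sample, and the groups were compared without a test or p-value. A gene is called higher or lower in Lhx9-positive cells when the log2 of the ratio of group means, each with 1 CPM added, was at least 1 or at most -1, a 2-fold rule of size. Detection of a gene means 5 or more counts in the cell. Levels carry the standard deviation (SD) among cells, and shares the exact 95% Clopper-Pearson interval. Such an interval covers counting error only, since embryos were not labelled and reads had no molecular identifiers.

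Lhx9 (ENSMUSG00000019230, chromosome 1, 138825186 to 138848577, GRCm38) split the kept cells with a wide gap. Lhx9-positive cells had from 15 to 1101 counts with a median of 134, whereas 16 Lhx9-negative cells had 0 counts and the other 3 had 1 count. The second lowest positive cell had 17 counts. In CPM the Lhx9-positive cells averaged 199 ± 108 (SD, n = 32) and the Lhx9-negative cells 0.190 ± 0.468 (SD, n = 19). Lhx9-positive cells made up 62.7% of the kept cells (interval 48.1% to 75.9%). The highest Actc1 level kept was 420 CPM, the next 260 CPM, and the lowest left out were 530 and 560 CPM. Actc1 averaged 41.1 ± 86.5 CPM in Lhx9-positive cells and 39.9 ± 68.1 CPM in Lhx9-negative cells (SD), and 16 Lhx9-positive and 10 Lhx9-negative cells had no Actc1 count. These values chose the cells and are given as a description. Because the groups were set by a gene measured in the same cells, every difference below describes cells sorted by Lhx9.

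**Figure D1:**
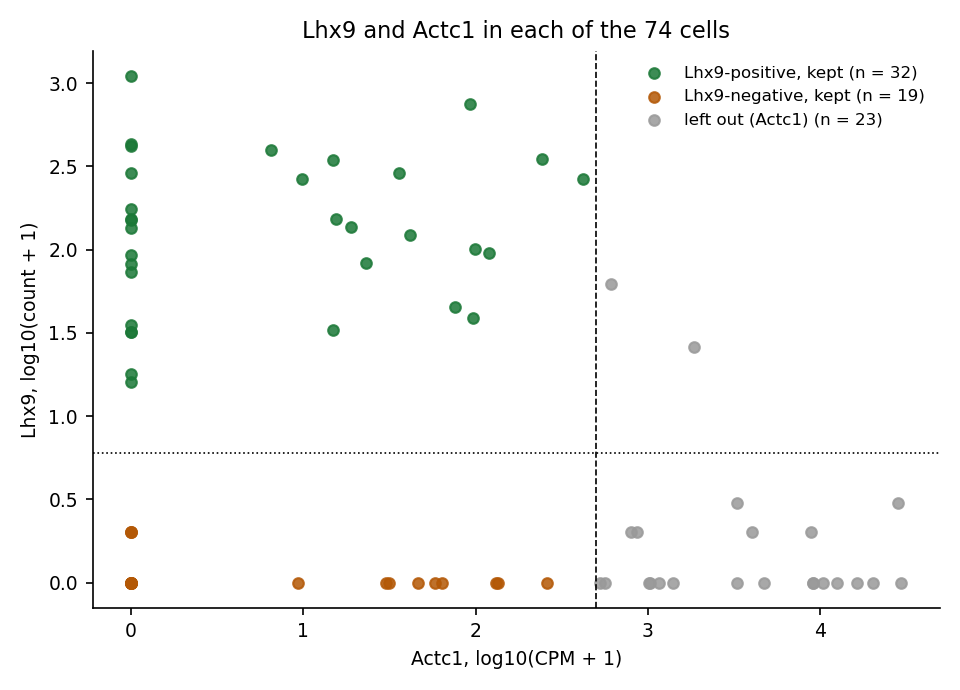
Lhx9 as log10(count + 1) against Actc1 as log10(CPM + 1) in each of the 74 cells. The dashed line marks 500 CPM of Actc1 and the dotted line 5 counts of Lhx9. The 32 Lhx9-positive and 19 Lhx9-negative kept cells are separated by an empty band between 1 and 15 Lhx9 counts, and 2 of the 23 left-out cells also lie above the Lhx9 line.

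The depths of the groups overlapped, with a higher median total in Lhx9-negative cells. Totals ranged from 216177 to 2618538 estimated counts in Lhx9-positive cells and from 327963 to 2046584 in Lhx9-negative cells. Their medians were 810674 and 1088060, and detection at 5 counts depends on depth. A median of 8086 genes was detected in Lhx9-positive cells and 7883 in Lhx9-negative cells. Mitochondrially encoded genes took a median of 1.94% of counts in Lhx9-positive cells and 1.73% in Lhx9-negative cells. No pair of cells had identical values.

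Of 11469 genes detected in at least 10% of the kept cells, 679 (5.92%) were higher and 961 (8.38%) lower in Lhx9-positive cells, or 14.3% in either direction, and the median log2 fold of all genes compared was -0.05. Among well-detected genes, those of highest fold in Lhx9-positive cells were Vwa1, Tubb3, Tm4sf5, Sowahd, Tmem151a and Upk1b. Those of lowest fold were Ppp1r14c, Rbm24, Rec114, Myocd, Adm and Adamts2. The count depends on how cells are summarised. With 10 CPM added in place of 1 CPM, 223 genes were higher and 268 lower. With the difference of mean log2(CPM + 1), 1094 were higher and 739 lower, so that 59.7% of the called genes were higher against 41.4% by the ratio of means, and the median of all genes was 0.08 on that scale.

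**Figure D2:**
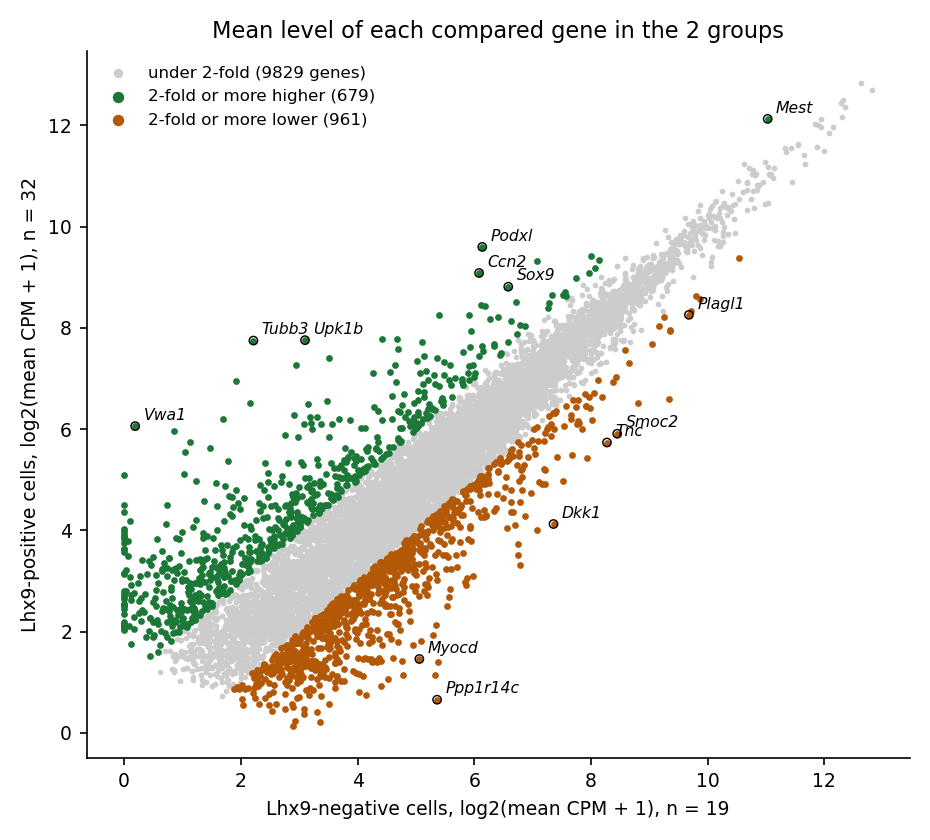
Mean level of each of the 11469 compared genes in Lhx9-positive cells (vertical axis, n = 32) against Lhx9-negative cells (horizontal axis, n = 19), both as log2(mean CPM + 1). Green points are the 679 genes at least 2-fold higher and orange points the 961 genes at least 2-fold lower in Lhx9-positive cells. Vwa1, Tubb3 and Upk1b stand far above the diagonal, and Ppp1r14c, Myocd and Dkk1 far below it.

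The label of the split was first read against the list of mesothelial and epicardial markers. Of 23 members, 20 were detected often enough to be compared, 15 were higher in Lhx9-positive cells, none was lower and 5 were within 2-fold. The median log2 fold was 2.45 against -0.05 over all genes, where 5.92% were higher and 8.38% lower. Cav1, counted among the 15, was detected in 8 Lhx9-positive and 0 Lhx9-negative cells, so it was compared only through the Lhx9-positive cells. Dmkn and Msln, both known from mature mesothelium, were detected in 0 and 1 Lhx9-positive cells and in 0 Lhx9-negative cells. Vcam1, an adhesion receptor of the forming epicardium, was detected in 1 Lhx9-positive and 4 Lhx9-negative cells and was not compared. The list was chosen with earlier results of these data known, so its direction is a description.

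Upk1b (chromosome 16, 38773184 to 38800328), a tetraspanin of the urothelial plaque that mesothelium also makes, ranged from 0 to 664 CPM with a median of 164 CPM in Lhx9-positive cells and from 0 to 77.4 CPM with a median of 0 CPM in Lhx9-negative cells. It was detected in 27 of 32 Lhx9-positive cells (84.4%, interval 67.2% to 94.7%) and in 2 of 19 Lhx9-negative cells (10.5%, interval 1.30% to 33.1%), with a log2 fold of 4.66. No Lhx9-negative cell reached the median of the Lhx9-positive cells, though it was not detected in 5 Lhx9-positive cells. Its partner Upk3b was detected in 29 Lhx9-positive and 2 Lhx9-negative cells and averaged 211 ± 150 CPM in Lhx9-positive cells and 33.3 ± 106 CPM in Lhx9-negative cells (SD). Every one of the 27 Lhx9-positive cells with Upk1b also had Upk3b.

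Podxl (chromosome 6, 31519488 to 31563981) encodes podocalyxin, the sialomucin that lines apical membranes. It ranged from 22.0 to 1648 CPM with a median of 791 CPM in Lhx9-positive cells and from 0 to 619 CPM with a median of 18.9 CPM in Lhx9-negative cells, a log2 fold of 3.46. All 32 Lhx9-positive and 10 Lhx9-negative cells had it, and the highest Lhx9-negative cell lay below the median of the Lhx9-positive cells. Ezr, or ezrin, which ties podocalyxin to the actin cortex, averaged 640 ± 337 CPM in Lhx9-positive cells and 134 ± 165 CPM in Lhx9-negative cells (SD), a log2 fold of 2.25.

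Lrrn4, a leucine-rich repeat membrane protein used as a mesothelial marker, had a median of 294 CPM in Lhx9-positive cells and 0 CPM in Lhx9-negative cells, with a log2 fold of 2.86. Scx, the scleraxis transcription factor known from tendon and from a subset of pro-epicardial cells, was detected in 28 Lhx9-positive and 3 Lhx9-negative cells, with a log2 fold of 4.35. The integrin subunit Itga4, which binds Vcam1 and is needed for the epicardium to stay on the heart, was detected in 30 Lhx9-positive and 7 Lhx9-negative cells and had a log2 fold of 3.36. Wt1, the epicardial zinc-finger regulator, was present in all 32 Lhx9-positive cells at 153 ± 57.8 CPM and in 16 of 19 Lhx9-negative cells at 46.9 ± 41.7 CPM (SD), a log2 fold of 1.68.

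The genes that stayed within 2-fold included regulators shared by both groups. Tbx18, whose Cre allele marked the cells, was detected in 32 Lhx9-positive and 17 Lhx9-negative cells with a log2 fold of 0.71. Tcf21, a regulator of epicardial fibroblast fate, was detected in the same numbers of cells with a log2 fold of 0.58. The keratin Krt8 had a log2 fold of 0.93, while its partner Krt18 had 1.82.

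**Figure D3:**
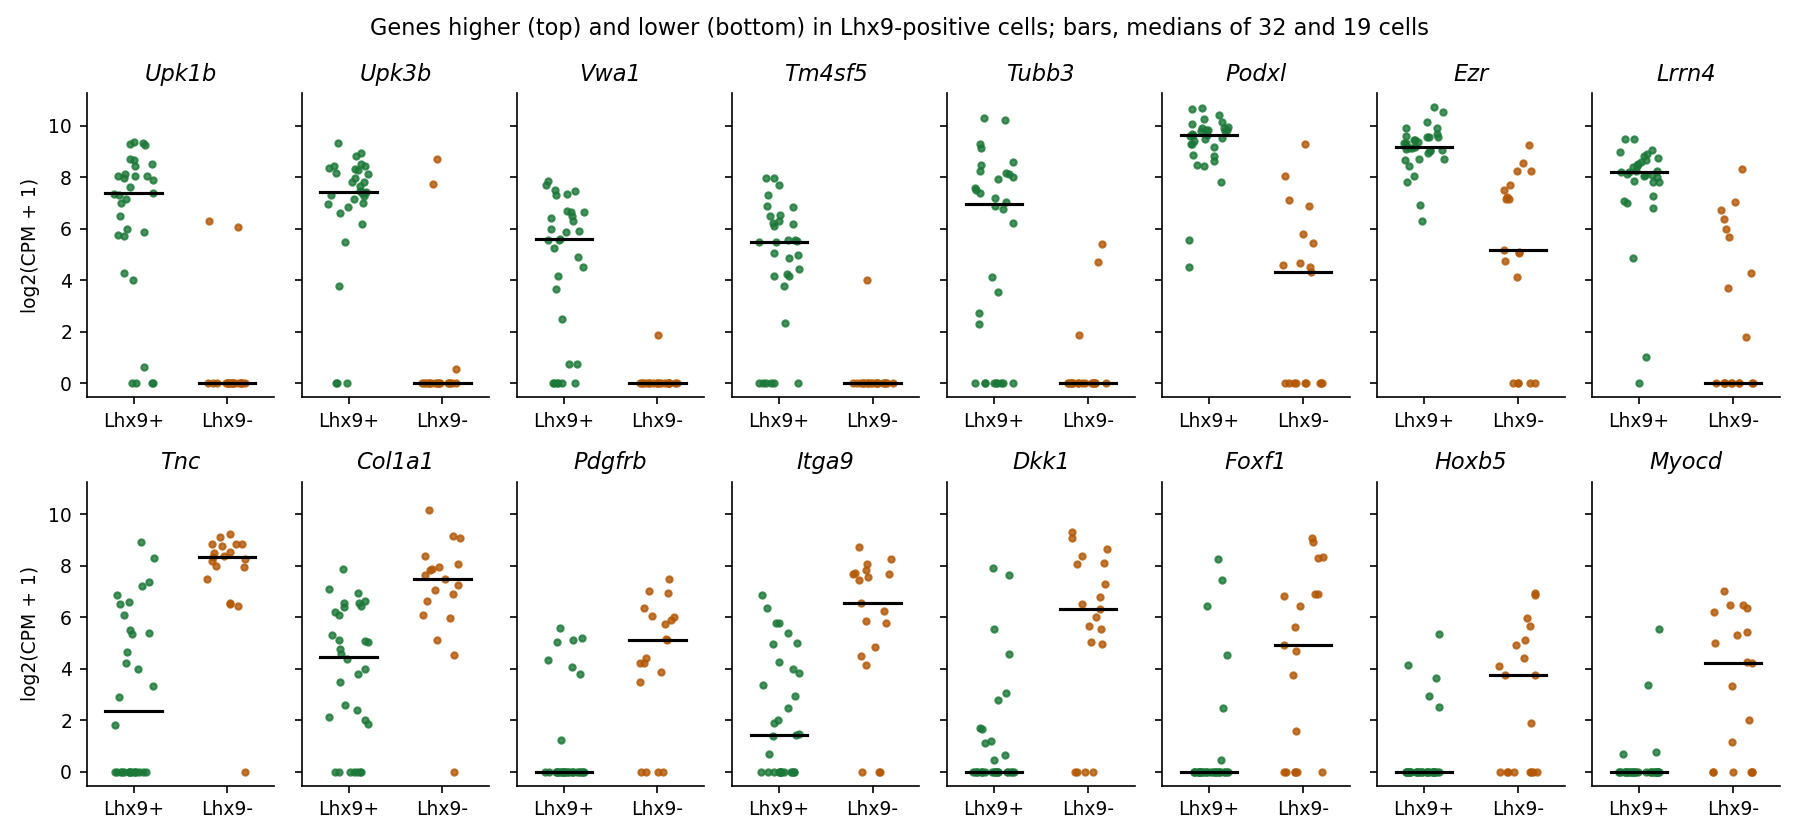
Level of 16 genes as log2(CPM + 1) in each Lhx9-positive cell (left in each panel, n = 32) and each Lhx9-negative cell (right, n = 19), with bars at the medians. Most Lhx9-negative cells lie at 0 for Upk1b, Upk3b, Vwa1, Tm4sf5 and Tubb3, and in the bottom row most Lhx9-positive cells lie at 0 for Pdgfrb, Dkk1, Foxf1, Hoxb5 and Myocd while the remaining genes overlap more widely.

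Promoters are shown for the gene that splits the cells and for a pair of mesothelial genes that differed between the groups, because the TEAD effectors of the Hippo pathway, whose genes are described further on, bind the letters CATTCC. The 250 bases before the RefSeq start site are printed (GRCm38.p6), 5′ to 3′ on the gene's strand, with CATTCC or its reverse complement GGAATG in capitals. The Lhx9 window is chr1:138842445-138842694 (minus strand), the Upk3b window chr5:136038246-136038495 (plus strand) and the Lrrn4 window chr2:132880863-132881112 (minus strand).
Lhx9: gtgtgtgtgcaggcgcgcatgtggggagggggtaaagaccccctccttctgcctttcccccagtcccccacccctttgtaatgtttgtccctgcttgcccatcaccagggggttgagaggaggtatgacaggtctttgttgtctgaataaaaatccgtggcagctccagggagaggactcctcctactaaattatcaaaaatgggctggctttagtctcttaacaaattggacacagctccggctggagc
Upk3b: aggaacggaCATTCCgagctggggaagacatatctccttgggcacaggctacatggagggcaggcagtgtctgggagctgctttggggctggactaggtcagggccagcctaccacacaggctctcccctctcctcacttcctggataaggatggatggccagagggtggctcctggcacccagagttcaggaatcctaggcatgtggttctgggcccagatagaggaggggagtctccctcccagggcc
Lrrn4: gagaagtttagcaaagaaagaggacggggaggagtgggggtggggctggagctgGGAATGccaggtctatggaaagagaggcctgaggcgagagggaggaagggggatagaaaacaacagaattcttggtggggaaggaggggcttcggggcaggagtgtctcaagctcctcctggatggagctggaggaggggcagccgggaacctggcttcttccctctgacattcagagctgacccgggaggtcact
The Upk3b window held 1 match that began 241 bases before the start and the Lrrn4 window 1 match that began 196 bases before it, while the Lhx9 window held none. Among genes with a RefSeq window, CATTCC on either strand was present in 15.5% of 497 genes higher in Lhx9-positive cells, 16.7% of 732 lower and 12.6% of 8866 compared. TAATTA, letters that homeodomain proteins commonly bind and that read the same on both strands, was present in 2.01% of the genes higher, 3.55% of those lower and 2.71% of those compared. A match is a description of the letters and not of binding. The printed pair was not drawn by a rule, so its matches do not stand for the genes higher in Lhx9-positive cells. The Lhx9 window lies inside the annotated span of the gene, 138825186 to 138848577, so the bases before the outermost start are not shown.

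Beyond Upk1b, several of the genes of highest fold had few or no counts in Lhx9-negative cells. Vwa1 (ENSMUSG00000042116, chromosome 4, 155768149 to 155774698), a matrix protein with a von Willebrand factor domain, ranged from 0 to 232 CPM with a median of 47.2 CPM in Lhx9-positive cells and from 0 to 2.68 CPM with a median of 0 CPM in Lhx9-negative cells. Detection was in 23 of 32 Lhx9-positive cells (71.9%, interval 53.3% to 86.3%) and in 0 of 19 Lhx9-negative cells (interval 0% to 17.6%). Vwa1 thus entered the comparison only through the Lhx9-positive cells. The Lhx9-negative cells held 1 count in all against 2143 in the Lhx9-positive cells, a ratio of 1379 after scaling to totals. Its counting interval, from 247 to 54484, treats each read as a separate draw and leaves out amplification and the spread among cells. The log2 fold of Vwa1 with 1 CPM added was 5.87.

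Tm4sf5 (chromosome 11, 70505244 to 70511178), a tetraspan-like membrane protein, ranged from 0 to 251 CPM with a median of 43.4 CPM in Lhx9-positive cells and from 0 to 15.2 CPM with a median of 0 CPM in Lhx9-negative cells. It was detected in 25 Lhx9-positive and 1 Lhx9-negative cell, with a log2 fold of 5.12. Of Upk1b, Vwa1 and Tm4sf5, 19 Lhx9-positive cells had all 3, 8 had 2, 2 had 1 and 3 had none. In the Lhx9-negative group 3 cells had 1 and the other 16 had none. Each gene was common in Lhx9-positive cells, and joint detection beyond their single shares was not tested. Of the 25 Lhx9-positive cells with Tm4sf5, all had Upk1b.

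Sowahd, an ankyrin-repeat protein gene on the X chromosome, was detected in 22 Lhx9-positive cells, through which alone it was compared. Sowahd had 0 counts in all 19 Lhx9-negative cells. Its mean was 220-fold that of a floor of 3 counts over the Lhx9-negative group, a ratio that leaves out the spread among cells. Tmem151a, a membrane protein of little-known role, had a median of 95.2 CPM in Lhx9-positive cells and 0 CPM in Lhx9-negative cells, and the highest Lhx9-negative cell had 10.03 CPM. Apela, the peptide ligand of the apelin receptor, had a median of 108 CPM in Lhx9-positive cells and 0 CPM in Lhx9-negative cells, and was detected in 30 Lhx9-positive and 4 Lhx9-negative cells. In these 3 genes no Lhx9-negative cell reached the median of the Lhx9-positive cells.

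The other leading genes were less evenly spread among Lhx9-positive cells. Hpgd, the enzyme that begins prostaglandin breakdown, was detected in 19 Lhx9-positive and 3 Lhx9-negative cells, and in Lhx9-positive cells its mean was 72.8 CPM, its median 15.5 CPM and its highest cell 986 CPM. Ppp1r16b, a phosphatase regulatory subunit, was detected in 19 Lhx9-positive and 2 Lhx9-negative cells with a log2 fold of 4.63. Rasal1, which switches off Ras, was detected in 24 Lhx9-positive and 2 Lhx9-negative cells with a log2 fold of 4.51. Tgm2, a transglutaminase that crosslinks matrix, was detected in 16 Lhx9-positive and 1 Lhx9-negative cell, and its exons overlap those of Rprd1b, so that reads of the pair may be shared. Gm28661 is annotated as an unprocessed pseudogene and its reads are uncertain. Its log2 fold was 3.89.

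Tubb3 (chromosome 8, 123411424 to 123422015), the beta-tubulin of neurons, ranged from 0 to 1260 CPM with a median of 122 CPM in Lhx9-positive cells and from 0 to 41.5 CPM with a median of 0 CPM in Lhx9-negative cells. Cells with detected Tubb3 numbered 22 in the Lhx9-positive and 2 in the Lhx9-negative group, with a log2 fold of 5.53. Neural markers as a list were mixed. Of 12 neural crest and neural markers, 5 were compared, and Tubb3 and Sox10 were higher while Dcx and Ncam1, at log2 folds of -2.20 and -2.07, were lower in Lhx9-positive cells. Foxd3 and Ret had 0 counts in all kept cells. Sox10, the glial and neural crest regulator, was detected in 8 of 32 Lhx9-positive cells (25.0%, interval 11.5% to 43.4%) and had 0 counts in the Lhx9-negative cells (interval 0% to 17.6%). It was thus compared only through the Lhx9-positive cells, and its log2 fold of 2.72 was 0.64 with 10 CPM added.

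Among 13 tubulins and neuronal cytoskeleton genes, 12 were compared, with a median log2 fold of -0.06. Against 8.38% lower and 5.92% higher over all genes, none was lower and 3 were higher. Besides Tubb3 these were Tubb6, at 417 ± 207 CPM in Lhx9-positive cells and 187 ± 227 CPM in Lhx9-negative cells (SD), and Tuba4a, detected in 5 Lhx9-positive and 1 Lhx9-negative cell. Tubb6 was under 2-fold when a single Lhx9 count made a cell positive, at a log2 fold of 0.83. Tuba4a did so with 10 CPM added, at 0.32.

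The genes of lowest fold differed in their levels in the cells left out for Actc1. Some were higher there than in Lhx9-negative cells and some were low. Others were in between or alike, such as Dkk1 at 34.7 CPM and Itga9 at 137 CPM in left-out cells. Their means in Lhx9-negative cells were 163 and 134 CPM. Ppp1r14c, a phosphatase inhibitor, ranged from 0 to 9.26 CPM with a median of 0 CPM in Lhx9-positive cells and from 0 to 174 CPM with a median of 7.203 CPM in Lhx9-negative cells, a log2 fold of -4.71. Rbm24, an RNA-binding regulator of muscle splicing, had a median of 0 CPM in Lhx9-positive cells and 34.8 CPM in Lhx9-negative cells, a log2 fold of -3.99. No Lhx9-positive cell reached that median of the Lhx9-negative cells.

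Myocd (chromosome 11, 65176561 to 65269989), the myocardin coactivator of smooth and cardiac muscle genes, was detected in 2 of 32 Lhx9-positive and 10 of 19 Lhx9-negative cells, with a log2 fold of -3.60. Adm, which encodes the vascular peptide adrenomedullin, had a log2 fold of -3.47, and Rec114, a meiotic recombination gene whose exons overlap those of Nptn, had -3.63. All 5 of these genes were on average higher still in the 23 cells left out for Actc1, where Ppp1r14c averaged 123 CPM, Rbm24 130 CPM, Myocd 99.4 CPM, Adm 263 CPM and Rec114 50.2 CPM. In the 16 Lhx9-positive and 10 Lhx9-negative cells without any Actc1 count the log2 folds were -3.51 for Ppp1r14c, -4.93 for Rbm24, -2.93 for Myocd, -2.57 for Adm and -2.51 for Rec114. That subset was chosen after the data were seen.

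A different set was low in Lhx9-positive cells and also low in the left-out cells. Adamts2, which trims procollagens, averaged 2.81 ± 3.58 CPM in Lhx9-positive cells and 38.3 ± 40.5 CPM in Lhx9-negative cells (SD), and 3.69 CPM in the left-out cells. Tgfbr3, the TGF-beta co-receptor betaglycan, averaged 6.62 ± 26.2 CPM in Lhx9-positive cells and 57.1 ± 89.3 CPM in Lhx9-negative cells (SD), and 1.06 CPM in the left-out cells. Galnt14, a glycosyltransferase of mucin-type sugars, averaged 7.57 ± 21.3 CPM in Lhx9-positive cells and 62.4 ± 67.9 CPM in Lhx9-negative cells (SD), and 1.39 CPM in the left-out cells. Col26a1, a collagen of little-known role, was detected in 3 Lhx9-positive, 15 Lhx9-negative and 2 left-out cells.

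Dkk1 (chromosome 19, 30545863 to 30549665), the secreted Wnt co-receptor inhibitor, ranged from 0 to 241 CPM with a median of 0 CPM in Lhx9-positive cells and from 0 to 640 CPM with a median of 79.3 CPM in Lhx9-negative cells, a log2 fold of -3.23. Dkk1 was detected in 5 of 32 Lhx9-positive cells and 15 of 19 Lhx9-negative cells, and 2 Lhx9-positive cells reached the median of the Lhx9-negative cells. Shisa2, which restrains Wnt and FGF receptors, had a log2 fold of -3.01. Cyp1b1, a cytochrome that can act on retinoids and oestrogens, had a log2 fold of -3.23. Il10rb, an interleukin receptor subunit whose exons overlap those of Gm21970, had -3.22.

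The list of septum transversum mesenchyme markers ran the other way from the epicardial list. Of 18 members, 16 were compared, 8 were lower in Lhx9-positive cells and none was higher, against 8.38% lower and 5.92% higher over all genes. The median log2 fold was -1.06 against -0.05 over all genes. Foxf1 (chromosome 8, 121084386 to 121088144), a forkhead regulator of visceral mesenchyme, ranged from 0 to 304 CPM in Lhx9-positive cells and from 0 to 540 CPM in Lhx9-negative cells. It was detected in 4 of 32 Lhx9-positive cells (12.5%, interval 3.51% to 29.0%) and 12 of 19 Lhx9-negative cells (63.2%, interval 38.4% to 83.7%), with a log2 fold of -2.59.

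Lhx2, the LIM-homeodomain relative of Lhx9, was detected in 9 Lhx9-positive and 14 Lhx9-negative cells with a log2 fold of -2.06, and in 10 Lhx9-negative cells it occurred together with Foxf1. When a single Lhx9 count made a cell positive, Lhx2 was under 2-fold at -0.93. Hlx, a homeobox gene of visceral mesenchyme, was detected in 3 Lhx9-positive and 12 Lhx9-negative cells. Des, the intermediate filament desmin, averaged 72.1 ± 80.7 CPM in Lhx9-positive cells and 258 ± 183 CPM in Lhx9-negative cells (SD).

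Bmp4, a ligand that guides pro-epicardial induction, had a log2 fold of -2.23, which was -0.52 in the cells without an Actc1 count. Alcam, an adhesion protein of septum transversum and mesothelium, had -1.40, which was -0.97 when a single Lhx9 count made a cell positive. Hand1 and Nr2f1, regulators of heart mesoderm and venous tissue, were lower at -1.69 and -1.82. Their relatives Hand2 and Nr2f2 stayed within 2-fold at 0.52 and -0.16. Gata4, a regulator of cardiac and septum transversum mesoderm, was also within 2-fold and averaged 576 ± 194 CPM in Lhx9-positive cells and 516 ± 201 CPM in Lhx9-negative cells (SD). Gata6 and Tbx5 had log2 folds of -0.43 and -0.52. Foxf2 and Isl1 were too rarely detected to be compared.

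**Figure D4:**
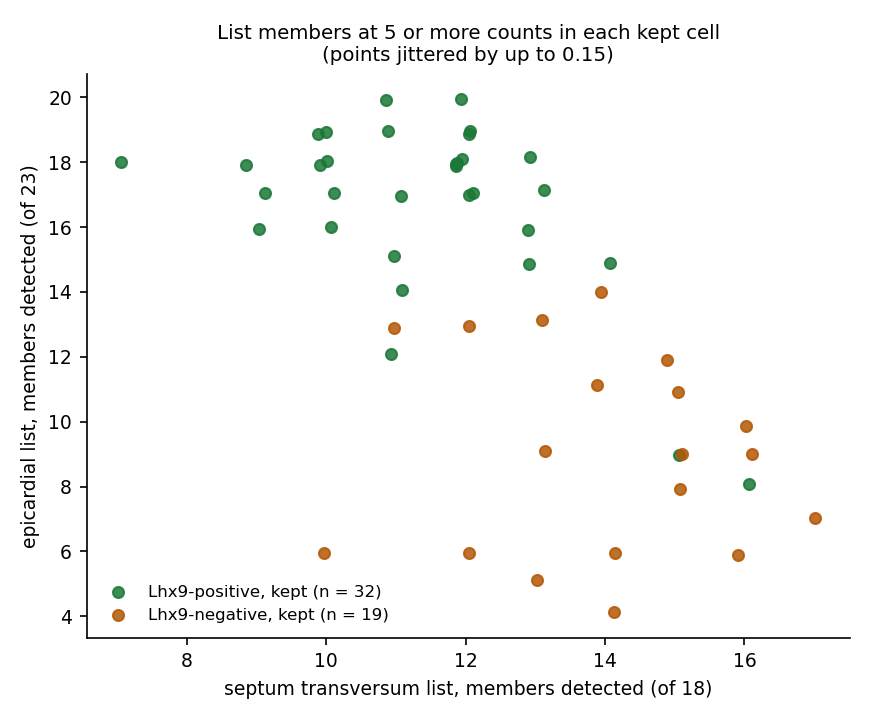
Number of the 23 mesothelial and epicardial markers detected in each kept cell (vertical axis) against the number of the 18 septum transversum markers (horizontal axis), with points jittered by up to 0.15. Lhx9-positive cells (green, n = 32) lie mostly at the upper left with a median of 17.5 epicardial markers, Lhx9-negative cells (orange, n = 19) at the lower right with a median of 9, and 2 green points lie among the orange ones.

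Counted cell by cell, Lhx9-positive cells had 8 to 20 of the 23 epicardial markers with a median of 17.5, and Lhx9-negative cells 4 to 14 with a median of 9. The number was above that of every Lhx9-negative cell in 28 of the 32 Lhx9-positive cells. Thinned to equal totals, the medians were 17 in Lhx9-positive and 9 in Lhx9-negative cells. Septum transversum markers numbered 7 to 16 of 18 with a median of 11.5 in Lhx9-positive cells and 10 to 17 with a median of 14 in Lhx9-negative cells, so the groups overlapped more on this list.

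A few cells stood apart from their group. The 2 Lhx9-positive cells of lowest Lhx9 level, 11.3 and 15.7 CPM, had none of Upk1b, Vwa1, Tm4sf5 and Upk3b. They had 8 and 9 epicardial markers and 16 and 15 septum transversum markers, Lhx2 at 299 and 255 CPM and Foxf1 at 173 and 304 CPM. Without these 2 cells 719 genes were higher and 1130 lower, a setting chosen after the data were seen. Another Lhx9-positive cell with 94.8 CPM of Lhx9 also lacked Upk1b, Vwa1 and Tm4sf5 but had Upk3b at 223 CPM, Podxl at 468 CPM and Scx at 72.5 CPM, at a total of 358832 counts.

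Of the Lhx9-negative cells, 3 had a uroplakin. One had 0 Lhx9 counts among 631508, with Upk3b at 421 CPM, Podxl at 619 CPM, Lrrn4 at 315 CPM, Wt1 at 131 CPM and Bnc1 at 103 CPM, beside Tnc at 435 CPM and Foxf1 at 119 CPM. That cell held the group's highest Podxl, Lrrn4 and Mest levels. Another had Upk3b at 210 CPM and Ezr at 604 CPM together with Sox9 at 680 CPM and Col1a1 at 1140 CPM. Those are the group's highest levels of Ezr, Sox9 and Col1a1. The third had Upk1b at 77.4 CPM, without Upk3b.

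Several fibrillar collagens were lower in Lhx9-positive cells. Of 19 collagens, 18 were compared, with a median log2 fold of -0.76. In Lhx9-positive cells 1 was higher and 7 were lower, against 5.92% and 8.38% over all genes. The other 10 were within 2-fold, and a median of 10 collagens was detected in Lhx9-positive cells and 11 in Lhx9-negative cells. Col1a1 (chromosome 11, 94936224 to 94953042), a fibrillar collagen chain, ranged from 0 to 231 CPM with a median of 21.2 CPM in Lhx9-positive cells and from 0 to 1140 CPM with a median of 177 CPM in Lhx9-negative cells, a log2 fold of -2.50. A single Lhx9-positive cell reached the median of the Lhx9-negative cells. Col3a1 and Col5a1, fibrillar chains as well, had log2 folds of -1.42 and -1.66, and Col5a1 was at -0.92 when a single Lhx9 count made a cell positive. Col1a2, the partner chain of Col1a1, stayed within 2-fold at -0.70. The collagen that was higher was Col4a2, a basement membrane chain, at 1.26.

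All 27 matrix and matricellular genes were compared, with 2 higher, 8 lower, 17 within 2-fold and a median log2 fold of -0.48. Over all compared genes 5.92% were higher and 8.38% lower, so 2 higher of 27 is near the share of all genes. A median of 19 was detected in Lhx9-positive cells and 21 in Lhx9-negative cells. Tnc (chromosome 4, 63959785 to 64047015), or tenascin-C, a matricellular protein of remodelling tissue, ranged from 0 to 483 CPM with a median of 4.48 CPM in Lhx9-positive cells and from 0 to 601 CPM with a median of 319 CPM in Lhx9-negative cells. Tnc was detected in 16 of 32 Lhx9-positive and 18 of 19 Lhx9-negative cells, and 1 Lhx9-positive cell reached the median of the Lhx9-negative cells. Its log2 fold was -2.54. Smoc2, a calcium-binding matrix protein, had -2.54 and the gelatinase Mmp2 -2.18. Lama4 and Lama5, laminin chains of basement membranes, were higher at 1.49 and 1.64. The abundant matrix protein Sparc stayed within 2-fold at -0.09.

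Integrins differed in both directions. Of 12, 10 were compared, 2 were higher, 2 were lower and the median log2 fold was -0.11. The shares over all compared genes were 5.92% higher and 8.38% lower. Itga4 ranged from 0 to 614 CPM with a median of 191 CPM in Lhx9-positive cells and from 0 to 181 CPM with a median of 2.35 CPM in Lhx9-negative cells. Itga9, a partner of Itgb1 that binds tenascin, ranged from 0 to 115 CPM with a median of 1.72 CPM in Lhx9-positive cells and from 0 to 420 CPM with a median of 92.9 CPM in Lhx9-negative cells, a log2 fold of -3.06. No Lhx9-negative cell reached the Itga4 median of the Lhx9-positive cells, and 1 Lhx9-positive cell reached the Itga9 median of the Lhx9-negative cells. Itga3, a laminin receptor subunit, was higher at 1.90 and Itgb5 lower at -1.76. Itgb1, the common beta subunit, was within 2-fold at 0.10.

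Epithelial genes did not move as a whole. Of 22 polarity and junction genes, 17 were compared, 3 were higher and 1 lower in Lhx9-positive cells, against 5.92% and 8.38% over all genes. The median log2 fold was -0.12. Beside Podxl and Ezr, the polarity protein gene Pard6b averaged 138 ± 89.2 CPM in Lhx9-positive cells and 22.5 ± 22.7 CPM in Lhx9-negative cells (SD), a log2 fold of 2.57. The desmosomal plaque gene Dsp was lower at -1.43. Of 10 transcription factors of the epithelial-to-mesenchymal transition list, 9 were compared, and Snai1, Snai2, Twist2 and Foxc2 were lower while Sox9 was higher, with a median log2 fold of -0.51. Snai1 and Snai2, which repress epithelial genes, stood at -1.20 and -1.23, and Snai2 was at -0.68 when a single Lhx9 count made a cell positive.

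Sox9, an SRY-box factor of cartilage and of epicardium-derived cells, ranged from 1.05 to 1222 CPM with a median of 456 CPM in Lhx9-positive cells and from 0 to 680 CPM with a median of 13.3 CPM in Lhx9-negative cells, a log2 fold of 2.23. Sox9 was detected in 31 Lhx9-positive and 12 Lhx9-negative cells. A single Lhx9-negative cell reached the median of the Lhx9-positive cells.

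Smooth muscle and pericyte genes were lower in Lhx9-positive cells. Of 10 members 7 were compared, 6 were lower and none was higher, against 8.38% and 5.92% over all genes. The median log2 fold was -1.35. Pdgfrb, the pericyte PDGF receptor, was detected in 6 Lhx9-positive and 15 Lhx9-negative cells, with a log2 fold of -2.74. Acta2, smooth muscle actin, averaged 206 ± 254 CPM in Lhx9-positive cells and 526 ± 702 CPM in Lhx9-negative cells (SD), and 3323 CPM in the left-out cells. Its log2 fold of -1.35 was -0.66 in the cells without an Actc1 count and -0.96 without its highest cell.

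Of 18 cardiomyocyte genes, 11 were compared, 1 was higher and 5 were lower, against 5.92% and 8.38% over all genes. The median log2 fold was -0.62. Of the 5 lower, the troponin gene Tnnc1 at -1.11 and the muscle LIM protein gene Csrp3 at -1.19 each rested on 1 cell and were at 0.58 and 0.94 without their highest cell. The summed level of the list ranged from 446 to 4224 CPM in Lhx9-positive cells and from 587 to 6587 CPM in Lhx9-negative cells. Myl4, the atrial light chain, had a log2 fold of -1.40, which was -0.79 without Actc1 counts. Mybpc3, cardiac myosin-binding protein, was the exception at 1.62. It was detected in 23 Lhx9-positive and 8 Lhx9-negative cells and averaged 80.4 ± 89.3 CPM in Lhx9-positive cells and 25.5 ± 46.4 CPM in Lhx9-negative cells (SD). Over all 74 cells it turned to -1.96. The myosin heavy chain gene Myh6 was detected in 2 Lhx9-positive and 2 Lhx9-negative cells, the cardiac homeobox gene Nkx2-5 in 1 Lhx9-positive and 0 Lhx9-negative cells, and Myh7 and Pln in 0 cells of either group. The part of muscle-like RNA in these differences was not tested.

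Markers of other cell types were present in part. Of 14 endothelial genes 7 were compared, with a median log2 fold of -0.29. Among them 1 was higher, 1 was lower and 5 were within 2-fold, against 5.92% higher and 8.38% lower over all genes. The VEGF receptor gene Flt1 was higher, at 48.3 ± 52.8 CPM in Lhx9-positive cells and 1.78 ± 5.14 CPM in Lhx9-negative cells (SD), a log2 fold of 4.15. Egfl7, a secreted vascular protein, was detected in 31 Lhx9-positive and 17 Lhx9-negative cells, the adhesion protein gene Pecam1 in 23 Lhx9-positive and 19 Lhx9-negative cells, and the angiopoietin receptor Tek in 27 Lhx9-positive and 14 Lhx9-negative cells. The summed endothelial list ranged from 43.8 to 371 CPM in Lhx9-positive cells and from 88.5 to 290.0 CPM in Lhx9-negative cells. Cdh5, Cldn5 and Etv2, which define endothelium, had 0 counts in all kept cells. The natriuretic peptide clearance receptor Npr3 was lower at -1.52. Of 8 leukocyte genes, 1 was compared and stayed within 2-fold.

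Erythroid and liver genes were detected in few cells. Of 9 erythroid genes 3 were compared, and all 3 were higher, against 5.92% over all genes. The summed erythroid list ranged from 0 to 631 CPM in Lhx9-positive cells and from 0 to 68.9 CPM in Lhx9-negative cells. Hba-a1, an alpha-globin gene, had a log2 fold of 1.84, yet its highest level of 484 CPM was in one of the 2 Lhx9-positive cells of lowest Lhx9, and without both the log2 fold was 0.65. The same cell held the highest level of Alb, the albumin gene, at 141 CPM. Alb was 1 of 12 liver and foregut genes compared. Its log2 fold was 1.27 and became 0.55 without those 2 cells. It turned to -0.31 with Actc1 under 1000 CPM, to -0.43 over all 74 cells and to -1.25 after thinning to equal totals. After thinning Hba-a1 also turned, to -1.45. Thinning changed the groups as well as the depth. It gave 27 Lhx9-positive and 19 Lhx9-negative cells, and only 18 of those 19 had been Lhx9-negative before. Hbb-bt, a beta-globin gene, was at 1.56, or 0.48 without the 2 Lhx9-positive cells of lowest Lhx9. The erythroid regulator Klf1 was detected in 6 Lhx9-positive cells (interval 7.21% to 36.4%) and had 0 counts in Lhx9-negative cells (interval 0% to 17.6%). It was thus compared only through the Lhx9-positive cells. Its log2 fold of 2.10 was 0.41 with 10 CPM added, 0.72 by the difference of mean log2 values and 0.85 over all 74 cells.

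Hox genes were lower in Lhx9-positive cells. Of 14 members, 8 were compared, 6 were lower and none was higher, against 8.38% and 5.92% over all genes. The median log2 fold was -1.26. Hoxb5 (chromosome 11, 96303336 to 96306121) was detected in 5 of 32 Lhx9-positive and 10 of 19 Lhx9-negative cells with a log2 fold of -2.90. Hoxb2 ranged from 0 to 263 CPM with a median of 26.7 CPM in Lhx9-positive cells and from 30.4 to 267 CPM with a median of 98.5 CPM in Lhx9-negative cells, a log2 fold of -1.48, and all 19 Lhx9-negative cells were at or above the median of the Lhx9-positive cells. Hoxb1 and Hoxa2, with log2 folds of -1.53 and -1.17, were at -0.50 and -0.39 in the cells without Actc1 counts. Hoxc4 was within 2-fold at -0.04.

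Among 18 LIM and other homeobox factors, 13 were compared, with a median log2 fold of -0.54. Of the 13, 1 was higher and 4 were lower, against 5.92% and 8.38% over all genes. The higher one was Lmo4, a LIM-only cofactor that binds the same partners as LIM-homeodomain proteins, at 173 ± 101 CPM in Lhx9-positive cells and 66.4 ± 39.9 CPM in Lhx9-negative cells (SD). No Lhx9-negative cell reached its median in Lhx9-positive cells. Prrx2, a homeobox gene of limb and heart mesenchyme, was lower at -1.47, or -0.75 when a single Lhx9 count made a cell positive.

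The Hippo pathway passes tension and cell contact to the coactivators Yap1 and Wwtr1, which act through TEAD factors. All 15 genes of its list were compared, 4 were higher and 1 was lower, against 5.92% and 8.38% over all genes. The median log2 fold was 0.74. Wwtr1, the coactivator TAZ, averaged 99.9 ± 70.3 CPM in Lhx9-positive cells and 23.1 ± 23.0 CPM in Lhx9-negative cells (SD), a log2 fold of 2.06, and no Lhx9-negative cell reached the median of the Lhx9-positive cells. Its relative Yap1 was within 2-fold at -0.18. The target gene Ccn2 (chromosome 10, 24595442 to 24598683) ranged from 0 to 2304 CPM with a median of 304 CPM in Lhx9-positive cells and from 0 to 652 CPM with a median of 8.31 CPM in Lhx9-negative cells, a log2 fold of 3.00. Its sister target Ccn1 did not follow, at -0.29. Tead4, counted among the 4 higher, was detected in 9 Lhx9-positive cells and had 0 counts in Lhx9-negative cells. Like Sox10, Tead4 was compared only through the Lhx9-positive cells. Wwc1, an upstream activator known as Kibra, was higher at 2.44. Amotl1, an angiomotin that holds the coactivators back, was lower at -1.23, though at -0.36 in the cells without Actc1 counts.

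**Figure D5:**
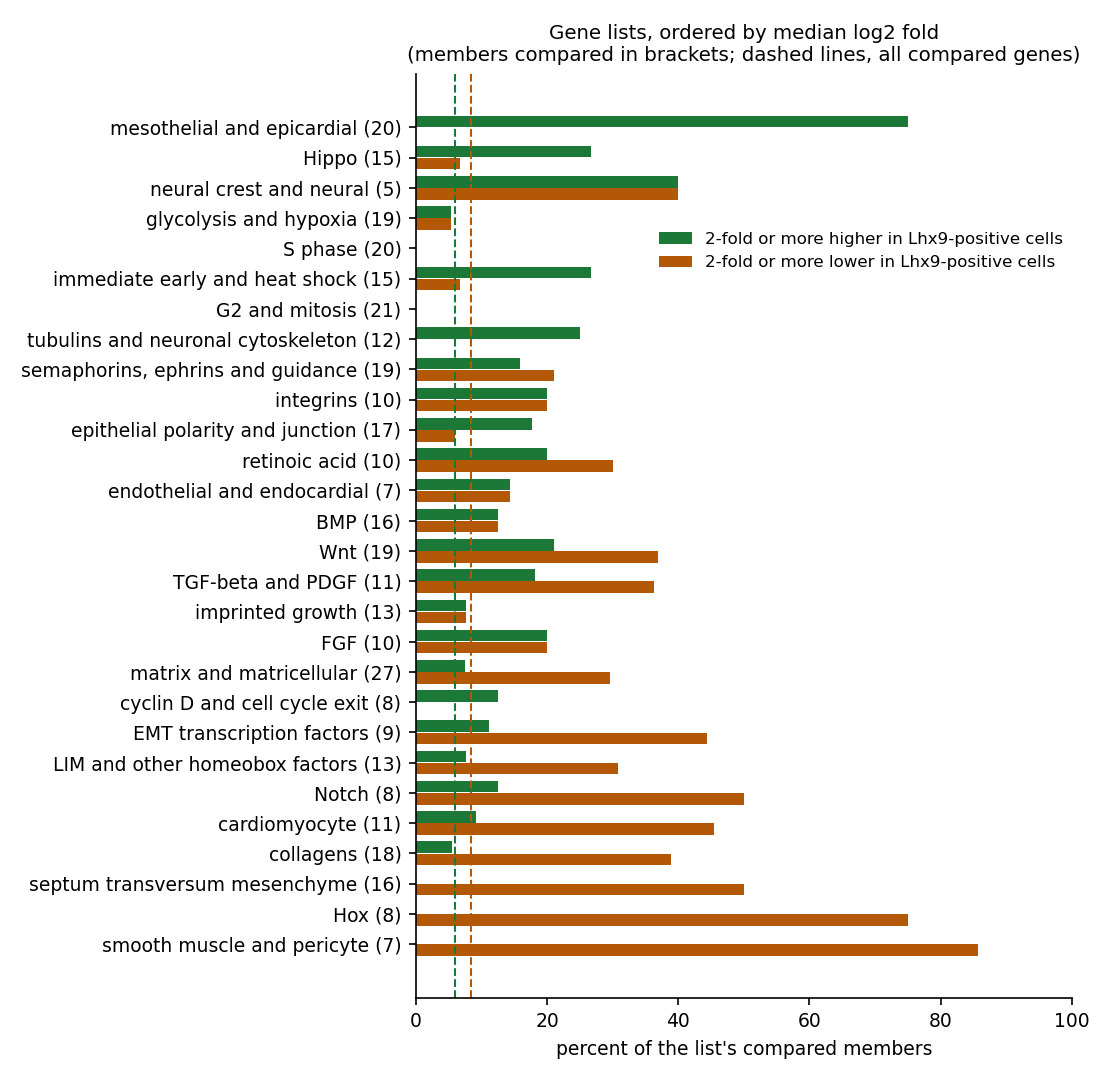
Percent of each list's compared members that were at least 2-fold higher (green) or lower (orange) in Lhx9-positive cells, for lists with 5 or more compared members, ordered by median log2 fold from the top. The dashed lines mark the same shares over all compared genes, 5.92% higher and 8.38% lower. The mesothelial and epicardial list leads at the top and the septum transversum, Hox and smooth muscle lists stand at the bottom.

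Signalling lists held genes of both directions. Over all compared genes 5.92% were higher and 8.38% lower, and the counts of these lists were not tested against those shares. Of 22 Wnt genes, 19 were compared, 4 were higher and 7 were lower, with a median log2 fold of -0.34. Wnt5a, a non-canonical ligand, was detected in 17 Lhx9-positive and 3 Lhx9-negative cells with a log2 fold of 2.57. The secreted inhibitor Sfrp5, typical of the cardiac inflow, was higher at 1.12, although at 0.84 when a single Lhx9 count made a cell positive. Its relatives Sfrp1 and Sfrp2 were lower at -1.34 and -2.59.

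Of 10 compared retinoic acid genes from a list of 15, 2 were higher and 3 lower, with a median log2 fold of -0.29. Rbp4, counted among the 2 higher, was detected in 9 Lhx9-positive and 0 Lhx9-negative cells, so only the Lhx9-positive cells brought it in. The aldehyde dehydrogenases that make retinoic acid differed. Aldh1a1 was detected in 16 Lhx9-positive and 1 Lhx9-negative cell with a log2 fold of 4.08. Aldh1a2, the main embryonic enzyme, was detected in 11 Lhx9-positive and 5 Lhx9-negative cells with a log2 fold of -1.11, a direction that turned to 0.12 by the difference of mean log2 values. The binding proteins Crabp1 and Crabp2 were lower at -2.21 and -1.05, and Crabp2 was at -0.71 without Actc1 counts. Crabp1 was detected in 10 Lhx9-positive and 7 Lhx9-negative cells and was at -0.57 by the difference of mean log2 values.

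Of 19 BMP genes, 16 were compared, 2 were higher and 2 lower, with a median log2 fold of -0.31. Nog, the BMP antagonist noggin, was detected in 16 of 32 Lhx9-positive cells (50.0%, interval 31.9% to 68.1%) and 0 of 19 Lhx9-negative cells (interval 0% to 17.6%), with 325 counts in Lhx9-positive cells and 6 in Lhx9-negative cells and a log2 fold of 3.10. With 10 CPM added it was 0.94, and Nog passed the detection filter only through the Lhx9-positive cells. Bmp2 was at 1.01 but turned to -0.42 over all 74 cells. Id3, a response gene of the pathway, was within 2-fold at -0.30.

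Of 16 FGF genes, 10 were compared, 2 were higher and 2 lower, with a median log2 fold of -0.39. Fgf9, a mesothelial ligand, was detected in 10 Lhx9-positive and 1 Lhx9-negative cell, and its receptor partner in mesenchyme, Fgfr1, was lower at -1.51. Of 15 TGF-beta and PDGF genes, 11 were compared, 2 were higher and 4 lower, with a median log2 fold of -0.35. Tgfb3 was higher at 1.53 and the transducer Smad3 lower at -1.52, while Tgfb2 was within 2-fold at -0.35. Pdgfra had a log2 fold of 0.06, in contrast to -2.74 for Pdgfrb.

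Of 13 Notch genes, 8 were compared, 1 was higher and 4 were lower, with a median log2 fold of -0.59. The receptor Notch2 was lower at -1.35 and the target Hes1 at -1.30, and Hes1 was at -0.86 when a single Lhx9 count made a cell positive. The target Hey1 was within 2-fold at 0.88, and the ligands Dll1 and Dll4 had 0 counts in all kept cells. Of 23 guidance genes, 19 were compared, 3 were higher and 4 lower, with a median log2 fold of -0.10. The semaphorin receptor Nrp2 averaged 71.1 ± 79.2 CPM in Lhx9-positive cells and 13.6 ± 23.5 CPM in Lhx9-negative cells (SD), a log2 fold of 2.31, and its relative Nrp1 was at -0.62.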

How the data were processed

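Full-length RNA libraries of 74 single cells were analysed. The deposited table holds the authors' estimated counts for each gene, as whole numbers that were not normalised. Kallisto (version not given in the sources used here) and the human build hg38 are named in the submitters' processing notes, yet all identifiers are mouse Ensembl identifiers. GENCODE M21 (GRCm38) gave symbols and positions for 29857 of 30323 identifiers, and the rest held 0.357% of counts. Promoter sequences are from RefSeq (GRCm38.p6).

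Totals ranged from 216177 to 2618538, and no cell was removed for quality. No doublet caller was run, since cells had been sorted 1 at a time. From the deposited estimated counts, CPM were computed by column sum. Group means, the log2 ratio with 1 CPM added and cells at 5 or more counts were taken for Lhx9-positive and Lhx9-negative cells. Lhx9 and Actc1 were left out of the results. The procedure was tested on simulated data.

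The members and the 33 gene lists were chosen with earlier results of these data known. Genes were named by rule: the 15 of highest and of lowest fold with a mean of 20 CPM and detection in 50% of cells in the higher group, the markers Upk1b, Vwa1 and Tm4sf5, and from each list up to 4 abundant members past 2-fold and 1 within it. Other list members in the text were picked once their values were known. Most list members enter the text only within the counts of their list, and some are not reported here. Alternatives varied the Lhx9 and Actc1 limits, the added CPM, the scaling (scran pooled size factors), the filter, the summary over cells, the depth and the cells included. Software was R 4.3.3 with scran 1.30.0, and Python 3.11.15 with SciPy 1.17.1, pandas 2.3.3, numpy 2.4.6 and matplotlib 3.10.9.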

Additional observations from a re-analysis of the deposited data

Results flagged for a closer look

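The cells left out for Actc1 were not part of the comparison, and 2 of these 23 cells (8.70%, interval 1.07% to 28.0%) had Lhx9 at 5 or more counts, a signal in cells outside the kept groups. Their highest Lhx9 level was 221 CPM. Of the 23 left-out cells, 3 had 2 of the markers Upk1b, Vwa1 and Tm4sf5, 2 had 1 and 18 had none, and the highest number of epicardial markers in a left-out cell was 19 of 23.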

How the results depend on the processing

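Across the other settings that gave them, the medians of epicardial markers lay between 16 and 18 in Lhx9-positive cells and between 8.5 and 9.5 in Lhx9-negative cells. The number of genes higher moved by over 1.5 times to 223 with 10 CPM added and to 1094 with the difference of mean log2 values. The number lower moved to 268 with 10 CPM added and to 1490 without a filter on low counts. Of 114 named genes past 2-fold, 151 of 1587 values fell under it. The 1587 include values that could not move. At 10 or more Lhx9 counts the groups held the same cells, and leaving out the filter changes no fold. Directions reversed for Alb (-0.31 with Actc1 under 1000 CPM, -0.43 over all cells, -1.25 after thinning to 354002 counts), Mybpc3 (-1.96) and Bmp2 (-0.42) over all cells, Csrp3 (0.16) and Aldh1a2 (0.12) with mean log2 values, and Hba-a1 after thinning (-1.45). They also reversed for Ier3 (-0.061) in cells without Actc1 counts, and for Tnnc1 (0.58) and Csrp3 (0.94) without each gene's highest cell. The settings without Actc1 counts, without the 2 Lhx9-positive cells of lowest Lhx9 and without each gene's highest cell were chosen after seeing the data. The causes were not tested. Cells with no Y-linked count gave no value, being 1 Lhx9-positive and 0 Lhx9-negative. The sex of the cells was not determined by this setting. At 5 counts Ddx3y was detected in 0 kept cells, Eif2s3y in 1, Uty in 9 and Kdm5d in 23. Thinning left out 8 of 74 cells and changed the groups, since only 18 of its 19 Lhx9-negative cells had been Lhx9-negative before. No paired analysis was possible because the cells carry no shared numbers and no test was made. With all cells as 1 sample, differences between embryos cannot be told apart from the groups.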

Other observations

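By their means, cell division genes were within 2-fold between the groups. All 20 S-phase genes and all 21 genes of G2 and mitosis stayed within 2-fold, with median log2 folds of 0.12 and -0.05. The replication helicase gene Mcm7 averaged 569 ± 230 CPM in Lhx9-positive cells and 501 ± 264 CPM in Lhx9-negative cells (SD, n = 32 and 19). Mitotic genes were nevertheless detected in unequal shares of the cells. Ccnb1, the mitotic cyclin B, was detected in 32 of 32 Lhx9-positive and 11 of 19 Lhx9-negative cells, and had a median of 294 CPM in Lhx9-positive cells and 64.3 CPM in Lhx9-negative cells, while its log2 fold of means was 0.12. Top2a, a topoisomerase of dividing cells, was detected in 31 Lhx9-positive and 13 Lhx9-negative cells, and the checkpoint kinase gene Bub1 in 30 Lhx9-positive and 11 Lhx9-negative cells. Against 5.92% over all compared genes, 1 was higher of the 8 compared from 10 cyclin D and cell cycle exit genes. This was Ccnd1, the cyclin that drives entry into S phase, detected in 29 Lhx9-positive and 10 Lhx9-negative cells with a log2 fold of 1.86. The cell cycle inhibitor Cdkn1c was within 2-fold at -0.49.

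Of 13 imprinted growth genes, 1 was higher and 1 lower, and the glycolysis list below also held 1 of each. These counts are near the shares over all compared genes, 5.92% higher and 8.38% lower. Mest, a paternally expressed gene of mesoderm, ranged from 1257 to 7112 CPM with a median of 4581 CPM in Lhx9-positive cells and from 982 to 4071 CPM with a median of 1988 CPM in Lhx9-negative cells, a log2 fold of 1.10. No Lhx9-negative cell reached the median of the Lhx9-positive cells. In the cells without an Actc1 count the log2 fold was 0.80. Plagl1, a zinc-finger regulator of imprinted genes, was lower at -1.42. Of 19 glycolysis and hypoxia genes, the glucose transporter Slc2a1 was higher at 1.23 and the hexokinase Hk1 lower at -2.35, while Gapdh was within 2-fold at 0.22. Hk1 averaged 169 CPM in the cells left out for Actc1.

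Of 16 immediate early and heat shock genes, 15 were compared, 4 were higher and 1 lower, against 5.92% and 8.38% over all compared genes. Atf3, a stress-induced factor, was detected in 25 Lhx9-positive and 5 Lhx9-negative cells with a log2 fold of 1.43. Egr1, an early growth response gene, was lower at -2.82, with a highest Lhx9-negative cell of 671 CPM over a median of 14.8 CPM. The abundant chaperone gene Hspa8 was within 2-fold at 0.12.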
